A study of Homo sapiens with 4 samples.

Results

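The 38 genes described here make up the core of 2 linked systems of the glioma cell line U87MG. They are 17 genes grouped as autophagosome genes and 21 genes of the lysosome. Counted among the 17 are SQSTM1, a cargo receptor, and TFEB, a transcription factor. Each of the 38 is represented by 1 probe set, the single-gene probe set of that symbol with the highest mean log2 level. All 38 were measured among 18132 genes tested. The cells, an established human line labelled as glioma, were transfected either with PC-490, the overexpression vector for miR-490, a microRNA, or with its control vector PCDNA. RNA was collected 48 h after transfection, and 100 ng per sample was hybridised to PrimeView expression arrays, 2 arrays with the miR-490 vector and 2 with the control vector. Both groups received a vector, so a response common to transfection is not visible. The labels do not say whether the 2 arrays of a group came from separate cultures, and the p-values therefore cover the spread among these 4 samples alone, part or all of which may be technical. In RNA of whole cultures, fewer cells of a kind and less RNA per cell cannot be told apart. The level of the microRNA and the share of cells that took up vector were not analysed here.

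In autophagy, a cup-shaped membrane closes around proteins or organelles and delivers them to the lysosome, an acidic compartment whose hydrolases digest them. Small ubiquitin-like proteins of the ATG8 family are coupled to lipid on that membrane, cargo receptors bind both them and the cargo, and the V-ATPase, a proton pump, acidifies the lysosome. Many lysosomal and some autophagy genes share a regulator, TFEB, which binds promoter elements built around the letters CACGTG. Cathepsins B and L have long been studied in glioma for their part in invasion.

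The agent of the experiment is shown by the 2 mature sequences that RefSeq (GRCh38.p14) gives for its hairpin, with the seed, bases 2 to 8, in capitals. The labels do not say which arm the vector was meant to supply.
hsa-miR-490-3p, chr7:136903242-136903263, plus strand: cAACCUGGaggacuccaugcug
hsa-miR-490-5p, chr7:136903205-136903224, plus strand: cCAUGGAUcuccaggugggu

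The deposited values are log2 levels per probe set. The 4 arrays correlated at 0.998 across genes within either group and across groups, and the array medians lay between 5.15 and 5.17. Mesenchymal genes that U87MG cells are known to express were high, with mean log2 levels of 13.92 for VIM, 13.46 for FN1 and 11.97 for CD44. By contrast the glial markers GFAP at 5.71, SOX2 at 4.87, NES at 4.15, OLIG2 at 3.68 and S100B at 3.38 lay below the median gene at 5.84. Of 10 leukocyte or microglia markers, 8 lay below that median, with PTPRC at 2.54 and CD14 at 3.23. Above it lay CSF1R at 6.47 and CD68, itself a lysosomal membrane protein, at 10.2. The mean over these 10 markers was 4.44 and 4.51 on the miR-490 arrays, against 4.51 and 4.55 on the control arrays, and 7 of the 10 had lower miR-490 means. Their part in the results below was not tested. Detection calls were not used here, so no gene is called absent.

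No autophagy or lysosome gene passed the test between the vectors, and the differences were small: the 38 log2 fold changes, miR-490 minus control, ran from -0.20 to 0.115. With limma and Benjamini-Hochberg adjustment over all 18132 genes, 0 of the 38 had an adjusted p under 0.05, as did 0 genes (0%) of the whole table. The means of 29 of the 38 genes were nonetheless lower with miR-490, where 47.3% of all genes were lower, and 9 were higher, where 50.1% of all genes were higher. At an unadjusted p under 0.05, 2 members were lower, LAMP2 and SQSTM1, where 2.88% of all genes were lower at that level. None of the 38 was higher at it, where 3.31% of all genes were. The count of 2 became 0 without control replicate 1, without miR-490 replicate 1 or without miR-490 replicate 2, and 3 without control replicate 2.

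Both miR-490 arrays lay below both control arrays in 13 of the 38 genes, 34.2% of them, against 16.1% of all genes. Above both control arrays lay 4 members, where 16.5% of all genes did, and in 21 members the groups overlapped. The level of a gene moves with these shares: 37 of the 38 members lay above the median gene, and among all genes above it, 50% had lower means and 19.2% lay below without overlap. Among the 1234 genes at a log2 level of 10 or more, 57.3% had lower means and 23.4% lay below without overlap. Of the 17 members at such levels, 15 had lower means and 10 lay below without overlap. At 2 arrays per group, an exact permutation test of 1 gene (two-sided) cannot give a p below 0.333.

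**Figure D1:**
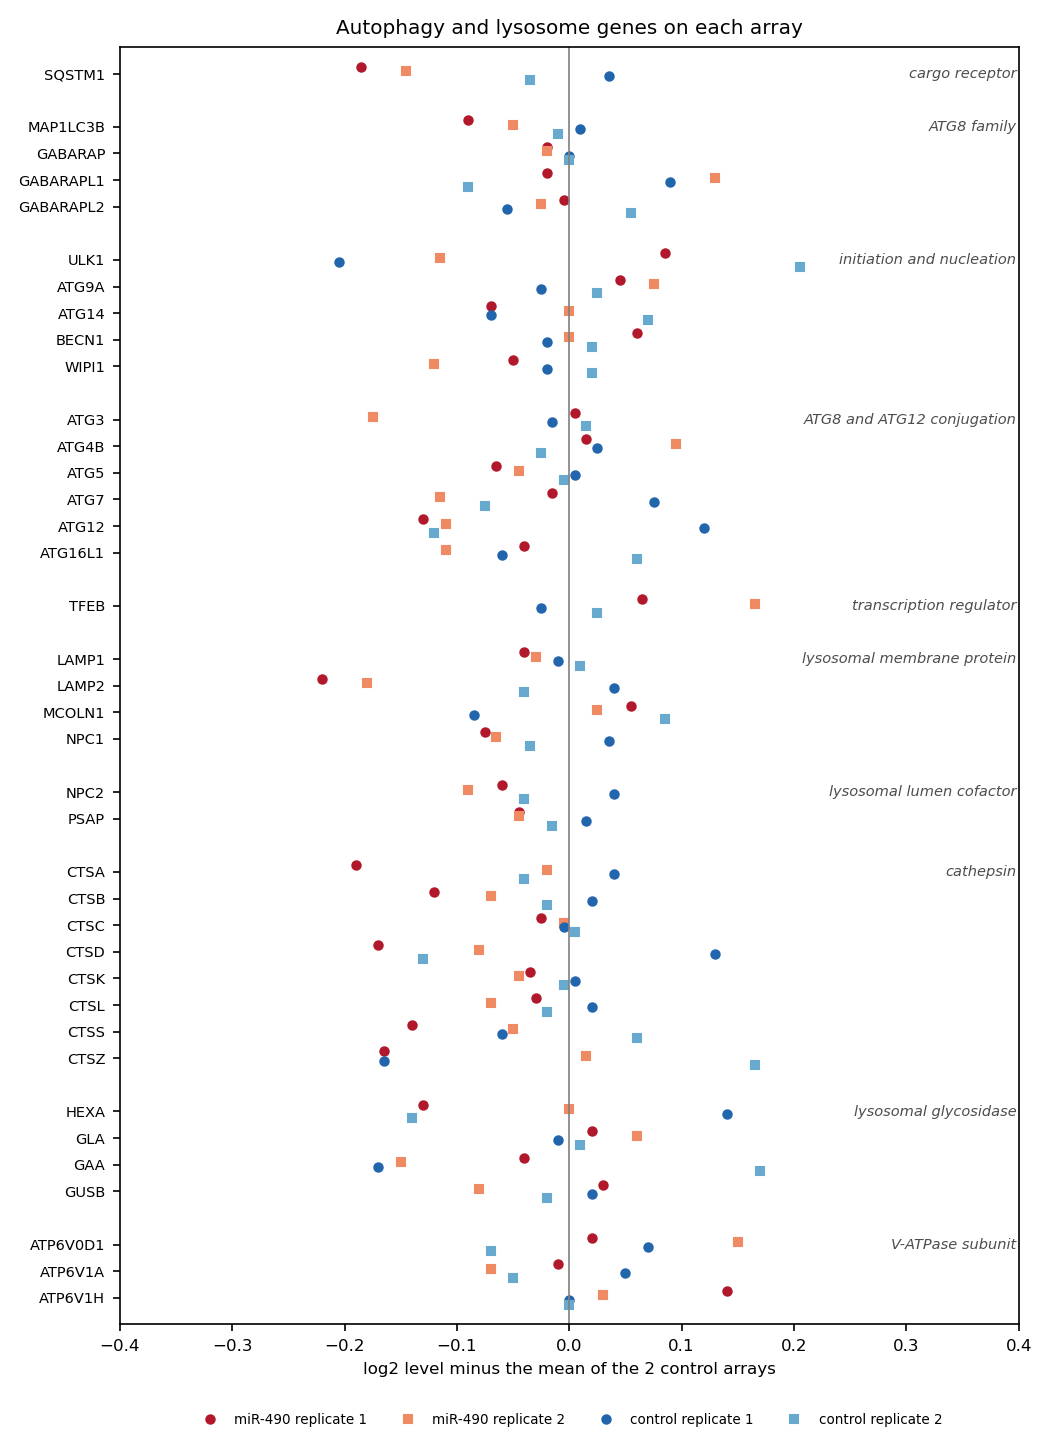
Each row is 1 gene, with the log2 level on each of the 4 arrays minus the mean of the 2 control arrays on the x axis, grouped by role. SQSTM1 and LAMP2 show both miR-490 arrays to the left of both control arrays, with log2 fold changes of -0.165 and -0.20. All 8 cathepsins among the members have lower miR-490 means, where 47.3% of all genes do.

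The median deviation of the 38 genes from their own 4-array means was -0.016 on miR-490 replicate 1 and -0.018 on miR-490 replicate 2, against 0.026 on control replicate 1 and 0.011 on control replicate 2. The same median over all genes was 0.0025 and 0 on the miR-490 arrays, against -0.015 and 0.013 on the control arrays. The highest value of a member fell on miR-490 replicate 1 in 3 genes and on miR-490 replicate 2 in 6, against 16 on control replicate 1 and 12 on control replicate 2. The lowest value fell on miR-490 replicate 1 in 12 and on miR-490 replicate 2 in 9, against 8 on control replicate 1 and 4 on control replicate 2. These counts over all genes were not analysed here.

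**Figure D2:**
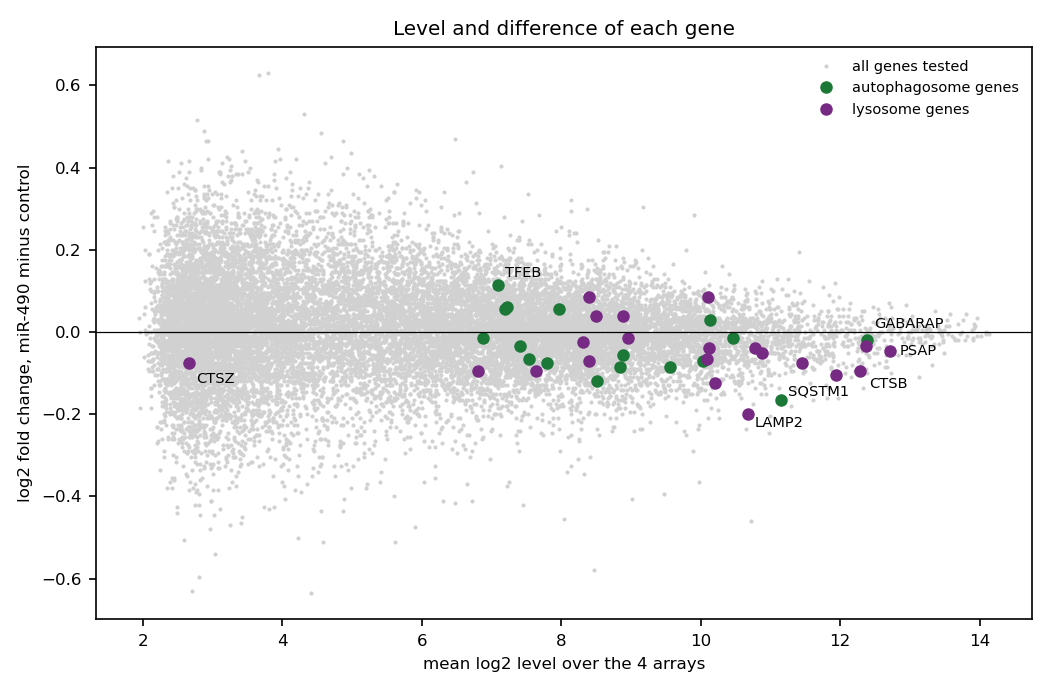
The mean log2 level over the 4 arrays (x axis) is set against the log2 fold change, miR-490 minus control (y axis), for all genes tested in grey, autophagosome genes in green and lysosome genes in purple. Members lie within the cloud of all genes, with LAMP2 at -0.20 and SQSTM1 at -0.165 near its lower edge at their levels, and CTSZ is the 1 member below the median gene.

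Among the 17 autophagosome genes, 12 had lower and 5 higher means with miR-490, where 47.3% of all genes were lower and 50.1% higher. The median log2 fold change was 0.005 over all genes and 0 over those above the median gene. It was -0.035 over the 17 autophagosome genes. The groups did not overlap in 7 of them, 5 lower and 2 higher, where 16.1% of all genes were lower without overlap, 19.2% of those above the median gene, and 16.5% of all genes higher. Leaving out control replicate 2 or miR-490 replicate 2 brought the median to -0.02 in each case.

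SQSTM1, or p62, the receptor that carries ubiquitin-tagged cargo into autophagosomes and is itself digested there, had log2 levels of 11.05 and 11.09 with miR-490, against 11.27 and 11.20 with the control vector. The 2 groups did not overlap, and the lower control array exceeded the higher miR-490 array by more than the gap between the miR-490 arrays. The means were 11.07 ± 0.028 with miR-490 and 11.24 ± 0.050 in controls (SD, n = 2 each), a ratio of 0.892. The log2 fold change was -0.165 with a standard error of 0.0592 and a 95% interval of -0.323 to -0.0069 (limma, unadjusted p = 0.0439, adjusted p = 0.786). Of its 5 probe sets, all were lower and all without overlap, with log2 fold changes of -0.175 to -0.055. Over all single-gene probe sets, 47.9% were lower and 15.7% were lower without overlap. Probe sets of 1 gene read the same RNA on the same arrays and are not replicates.

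The 4 ATG8 family members, which coat the growing membrane, differed less. MAP1LC3B, the LC3 protein used as the standard autophagosome marker, had log2 levels of 9.98 and 10.02 with miR-490, against 10.08 and 10.06 in controls, a log2 fold change of -0.07 (95% interval -0.22 to 0.076). GABARAP, which acts in late steps of autophagosome formation, was at 12.38 on both miR-490 arrays, against 12.40 on both control arrays. These 2 genes did not overlap between groups, though by margins of 0.04 and 0.02. GABARAPL1 had 7.15 and 7.30 with miR-490, against 7.26 and 7.08 in controls, and GABARAPL2 had 10.46 and 10.44, against 10.41 and 10.52. The values of both paralogs overlapped, and the other sets of GABARAP and GABARAPL1 gave both signs or 0. The near-identical gene MAP1LC3B2 was not analysed here, and a probe set of MAP1LC3B could read both.

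Of the 5 factors that start the membrane, 3 had lower and 2 higher means, with log2 fold changes between -0.085 and 0.06. With 1 array left out, 1 to 3 of the 5 were lower. WIPI1, which binds the lipid made at the nucleation site, had 8.84 and 8.77 with miR-490, against 8.87 and 8.91 in controls, and its other probe set was lower as well (-0.135). ATG9A, a membrane protein of the vesicles that seed the structure, had 7.23 and 7.26 with miR-490, against 7.16 and 7.21 in controls. These 2 genes did not overlap, in opposite directions. ULK1, the kinase at the head of the pathway, had 6.97 and 6.77 with miR-490, against 6.68 and 7.09 in controls. Its control arrays lay on either side of both miR-490 arrays, and its standard error of 0.162 was the largest of the 38. BECN1, of the lipid kinase complex, had a log2 fold change of 0.03 and ATG14, its partner, of -0.035, with overlapping values in both.

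The conjugation enzymes attach ATG12 to ATG5 and the ATG8 proteins to lipid. Of these 6 genes, 5 had lower means, with a median of -0.07, and 1, the protease gene ATG4B, had a higher mean (log2 fold change 0.055). Without control replicate 1, 3 of the 6 were lower and the median was -0.025, and without miR-490 replicate 2, 4 were lower and it was -0.028. It was -0.11 without miR-490 replicate 1 and -0.032 with probe sets averaged per gene. ATG5 had 8.85 and 8.87 with miR-490, against 8.92 and 8.91 in controls, without overlap. The other 5 overlapped. ATG12, the ubiquitin-like partner of ATG5, had the most negative value of the role at -0.12, but its arrays read 8.44 and 8.46 with miR-490, against 8.69 and 8.45 in controls, so 1 control array carried the difference. Its other probe set had the opposite sign (0.085). ATG3, the enzyme that transfers ATG8 proteins to lipid, was at -0.085, ATG16L1, which directs that transfer to the membrane, at -0.075, and ATG7, which activates both ubiquitin-like systems, at -0.065.

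TFEB, the transcription factor that drives lysosomal and autophagy genes when nutrients are short, was on the other side. Its log2 levels were 7.10 and 7.20 with miR-490, against 7.01 and 7.06 in controls. Both miR-490 arrays lay above both control arrays, and the log2 fold change was 0.115 (95% interval -0.058 to 0.288, limma adjusted p = 0.819). Its second probe set gave 0.135 at a mean log2 level of 3.05, with overlapping groups.

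The sites that TFEB and its relatives are known to bind were looked up in the promoter windows of RefSeq (GRCh38.p14), 250 bases before to 50 after each start, in which 30 of the 38 members had an entry. PSAP, ATP6V1H, CTSK, LAMP2, CTSB, ATP6V1A, CTSS and HEXA had none. The core letters CACGTG, which read the same on both strands, stood in 8 of the 30 windows (26.7%), against 8.82% of the 14425 windows of genes tested and 7.44% of all 27305 windows. The longer form TCACGTGA, also the same on both strands and always containing the core, stood in 6 of the 30, against 1.47% of the windows of genes tested and 1.04% of all windows. It was in 5 of 13 lysosome windows and in 1 of 17 autophagosome windows, that of ATG3. A match is a string of letters and not a shown binding site. The sequences around the longer form are printed for 4 of the 5 lysosome genes that hold it, 5′ to 3′ along the gene's strand and ending before the start site, with TCACGTGA in capitals.
MCOLN1, chr19:7522571-7522600, plus strand: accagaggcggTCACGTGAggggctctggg
MCOLN1, chr19:7522598-7522623, plus strand: gggctaccgggTCACGTGAccgaggc
GAA, chr17:80101493-80101522, plus strand: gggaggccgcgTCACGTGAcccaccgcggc
GAA, chr17:80101538-80101567, plus strand: gctcccgccggTCACGTGAcccgcctctgc
CTSA, chr20:45891298-45891327, plus strand: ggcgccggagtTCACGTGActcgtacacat
ATP6V0D1, chr16:67481199-67481228, minus strand: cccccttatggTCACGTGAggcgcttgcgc

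LAMP1, the fifth, held the most, with 6 cores in its window. The stretch from 204 to 11 bases before its start site is printed because it carries 5 of them, 4 of them close together and the last in the longer form, all in capitals.
LAMP1, chr13:113297035-113297228, plus strand: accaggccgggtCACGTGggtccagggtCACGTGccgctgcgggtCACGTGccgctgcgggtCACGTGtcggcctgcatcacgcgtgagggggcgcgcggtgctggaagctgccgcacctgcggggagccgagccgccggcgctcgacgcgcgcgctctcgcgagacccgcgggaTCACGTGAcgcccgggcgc

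The members with the longer form had both signs: log2 fold changes of -0.105 for CTSA, -0.095 for GAA, -0.085 for ATG3, -0.035 for LAMP1, 0.04 for MCOLN1 and 0.085 for ATP6V0D1. Of these 6, LAMP1 was the 1 gene whose groups did not overlap in the probe set used. Among all tested genes with a window, the median of the log2 fold changes was 0 over the 212 with TCACGTGA, of which 49.1% were lower, and 0.005 over the 14213 without it, of which 47.2% were lower. At an unadjusted p under 0.05 (limma), 5 of the 212 were lower and 4 higher.

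Among the 21 lysosome genes, 17 had lower and 4 higher means with miR-490, where 47.3% of all genes were lower and 50.1% higher. Of genes at a log2 level of 10 or more, 57.3% were lower. The median log2 fold change was 0.005 over all genes and -0.01 over those at a log2 level of 10 or more. It was -0.05 over the 21 lysosome genes, whose median log2 level was 10.1. The groups did not overlap in 10 of them, 8 lower and 2 higher, where 16.1% of all genes were lower without overlap, 23.4% of those at a log2 level of 10 or more, and 16.5% of all genes higher. With the probe set of largest variance in place of the brightest, the median was -0.03.

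**Figure D3:**
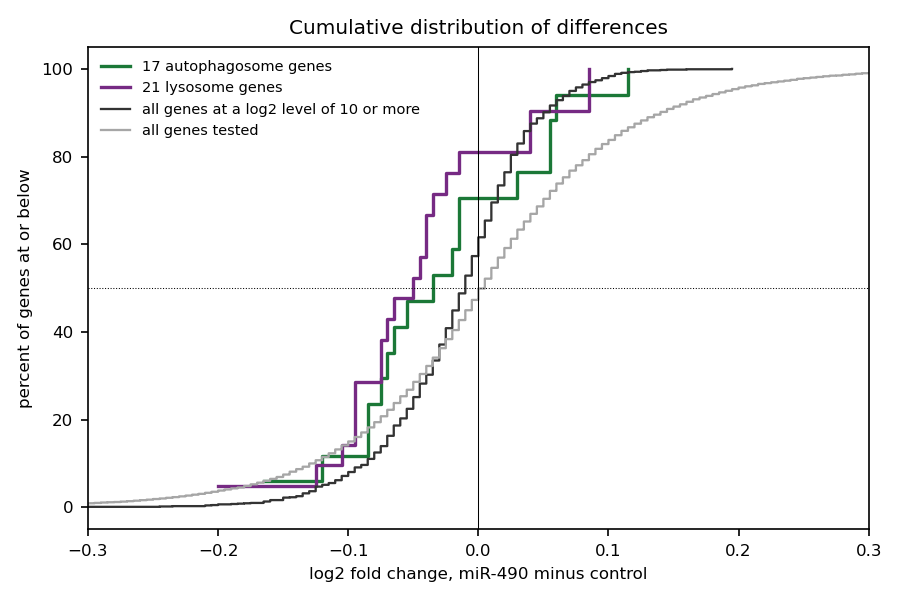
Cumulative percent of genes (y axis) at or below each log2 fold change, miR-490 minus control (x axis), for the autophagosome genes, the lysosome genes, all genes at a log2 level of 10 or more and all genes tested. The curves of both member sets cross 50% left of 0, at medians of -0.035 and -0.05. That of genes at a log2 level of 10 or more crosses at -0.01, and that of all genes at 0.005.

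LAMP2, a heavily glycosylated membrane protein that lines the lysosome, takes part in fusion with autophagosomes and in one isoform serves as the receptor of chaperone-mediated autophagy, had the largest difference of the 38. Its log2 levels were 10.56 and 10.60 with miR-490, against 10.82 and 10.74 with the control vector. The groups did not overlap, with means of 10.58 ± 0.028 and 10.78 ± 0.057 (miR-490 and control, SD, n = 2 each) and a ratio of 0.871. The log2 fold change was -0.20 with a standard error of 0.0606 and a 95% interval of -0.362 to -0.038 (limma, unadjusted p = 0.0256, adjusted p = 0.786). Without control replicate 1 the value was -0.16 at an unadjusted p of 0.0713, and without miR-490 replicate 1 it was -0.18 at 0.1045 (limma).

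LAMP2 is also the member with the most probe sets, 9 in all. All 9 were lower with miR-490, by log2 fold changes of -0.295 to -0.07, where 47.9% of all single-gene probe sets were lower. Of the 9, 8 were lower without overlap, where 15.7% of all single-gene sets were. The 9 sets read the same RNA on the same arrays and are not replicates. The widest difference was that of a set at 8.01 and 7.99 with miR-490, against 8.47 and 8.12 in controls. In the set that overlapped, the values were 6.61 and 6.48 with miR-490, against 6.70 and 6.53 in controls. Control replicate 1 was the higher control array in 7 of the 9 sets, equal in 1 and lower in 1. The transcript isoform that each set reads was not analysed here.

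**Figure D4:**
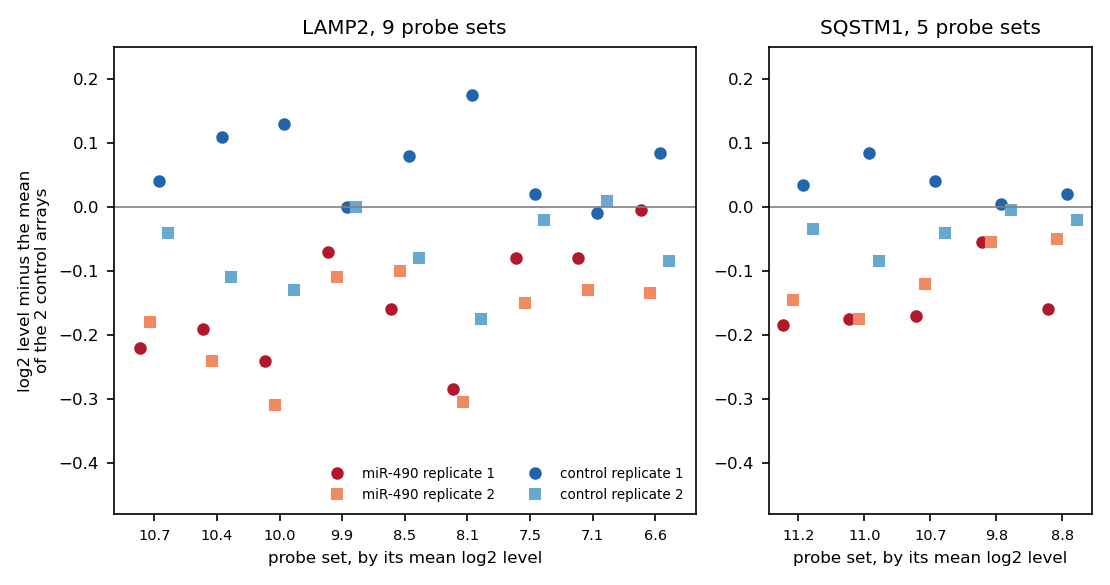
Every probe set of LAMP2 (left) and SQSTM1 (right), ordered by mean log2 level on the x axis, with the log2 level on each array minus the mean of the 2 control arrays on the y axis. All 9 LAMP2 sets and all 5 SQSTM1 sets have miR-490 means below the control mean, and 1 LAMP2 set overlaps. Of all single-gene sets, 47.9% are lower and 15.7% lower without overlap.

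The other membrane proteins differed less. LAMP1, the companion glycoprotein of LAMP2, had 12.35 and 12.36 with miR-490, against 12.38 and 12.40 in controls, a log2 fold change of -0.035 without overlap. Its other probe sets, at -0.065 and 0.025, overlapped between the groups. NPC1, which exports cholesterol from the lysosome, had 8.36 and 8.37 with miR-490, against 8.47 and 8.40 in controls, also without overlap, and its second set gave -0.13. MCOLN1, a calcium channel of the lysosomal membrane, had a higher mean (0.04), with 8.54 and 8.51 on the miR-490 arrays inside the control range of 8.40 to 8.57. Of the soluble cofactors, NPC2, which hands cholesterol to NPC1, had 11.43 and 11.40 with miR-490, against 11.53 and 11.45 in controls. PSAP, the precursor of the saposins that present lipids to hydrolases, was at 12.70 on both miR-490 arrays, against 12.76 and 12.73 in controls. Neither cofactor overlapped in the probe set used. All 4 probe sets of each had lower means, but only 1 set of NPC2 and 2 of PSAP were without overlap. Over all single-gene probe sets, 47.9% were lower and 15.7% lower without overlap. The dimmest sets of NPC2, at mean log2 levels of 4.08 and 2.82, differed by -0.005 and -0.03.

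All 8 cathepsins among the members had lower means with miR-490, where 47.3% of all genes were lower. Among genes at a log2 level of 10 or more, 57.3% were lower. Cathepsins of the wider hydrolase list had both signs, with log2 fold changes from -0.05 to 0.28. Those with higher means lay below the median gene. The log2 fold changes of the 8 cathepsins ran from -0.125 to -0.015, with -0.085 as the median. The median was -0.05 without control replicate 1, where CTSD was no longer lower, and -0.048 without miR-490 replicate 1, where CTSZ was not. Without control replicate 2 it was -0.058, again with CTSZ not lower, and without miR-490 replicate 2 it was -0.13 with all 8 lower. The median deviation of the 8 from their 4-array means was -0.083 and -0.01 on the miR-490 arrays, against 0.035 and 0.014 on the control arrays. None had an unadjusted p under 0.05 (limma, smallest 0.163). CTSB, the cysteine cathepsin linked to glioma invasion, had 12.22 and 12.27 with miR-490, against 12.36 and 12.32 in controls, a log2 fold change of -0.095 (95% interval -0.247 to 0.057). Its 4 probe sets were all lower, at -0.19 to -0.025, 3 of them without overlap. CTSL and CTSK, further cysteine cathepsins, did not overlap either: CTSL had 10.88 and 10.84 with miR-490, against 10.93 and 10.89 in controls, and CTSK had 10.77 and 10.76, against 10.81 and 10.80. Each of these 3 genes differed by under 0.1 on the log2 scale. Over all genes, 16.1% were lower without overlap, and over those at a log2 level of 10 or more, 23.4% were.

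In the other 5 cathepsins the groups overlapped. CTSD, the aspartic cathepsin, had the most negative mean difference of the role (-0.125), with 10.10 and 10.19 on the miR-490 arrays, against 10.40 and 10.14 on the control arrays, so the difference came from control replicate 1. CTSA, the carboxypeptidase that protects lysosomal sialidase and galactosidase, was at -0.105 with miR-490 arrays of 11.80 and 11.97, against 12.03 and 11.95 in controls. CTSS, which is typical of antigen-presenting cells, was at -0.095, CTSC, which activates granule proteases, at -0.015, and CTSZ at -0.075. CTSZ, at log2 levels of 2.54 and 2.72 with miR-490, against 2.54 and 2.87 in controls, was the 1 member below the median gene.

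Of the 4 glycosidases, which remove sugars from lipids, glycogen and glycosaminoglycans, 3 had lower means and the median log2 fold change was -0.045. That median was 0.013 without control replicate 1, 0.0025 without control replicate 2 and -0.01 without miR-490 replicate 2. It was 0.041 with probe sets averaged per gene and 0.163 with the probe set of largest variance. GLA, or alpha-galactosidase A, had a higher mean with 8.88 and 8.92 with miR-490, against 8.85 and 8.87 in controls, without overlap and with all 3 probe sets higher. HEXA, a subunit of hexosaminidase, was at -0.065, GUSB, or beta-glucuronidase, at -0.025 and GAA, the acid glucosidase of glycogen, at -0.095, all with overlap. The second set of GAA, at a mean log2 level of 4.03, had the opposite sign (0.355). The control arrays of GAA read 6.68 and 7.02 and spanned both miR-490 values.

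Of the 3 subunits of the proton pump, 2 had higher means. ATP6V1H had 8.49 and 8.38 with miR-490, against 8.35 on both control arrays, and ATP6V0D1 had 10.08 and 10.21, against 10.13 and 9.99, a log2 fold change of 0.085 for each. ATP6V1A, the catalytic subunit, was at -0.04, and its 4 other sets had the opposite sign. Whether the V-ATPase genes differ from the hydrolases was not tested.

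The probe sets not chosen by the rule read the same RNAs on the same arrays and are not replicates. Whether they share probes with the chosen sets was not analysed here. The 38 genes have 128 single-gene sets, of which 89 were lower, where 47.9% of all single-gene sets were lower. A further 37 were higher and 2 were equal between the groups. Of the 90 sets that were not used, 72 had the sign of the set used for their gene. That share over all genes was not analysed here. In 16 of the 32 genes with several sets every set was lower, and in 4, ATG9A, TFEB, MCOLN1 and GLA, every set was higher. The shares of such genes among all genes with several sets were not analysed here either.

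Beyond the members, 142 other genes of the 2 systems were listed, of which 133 were measured, and 0 of the 133 passed (limma, adjusted over all genes). Their means were lower in 74 and higher in 54, where 47.3% of all genes were lower and 50.1% higher. Of the 133, 118 lay above the median gene, and among all genes above it 50% were lower. Those shares stand beside each list below. The median difference of the 133 was -0.01 on the log2 scale. At an unadjusted p under 0.05, 0 were lower and 3 higher, where 2.88% of all genes were lower and 3.31% higher. The other lysosomal hydrolases were lower in 21 of 27 (median -0.04), with DNASE2, the acid nuclease, at 10.14 and 10.11 with miR-490, against 10.25 on both control arrays. Next by p was CTSV, a cysteine cathepsin, which was higher without overlap (log2 fold change 0.28). Its mean log2 level was 2.71, below the median gene at 5.84. Other lysosomal membrane proteins were lower in 13 of 17 (median -0.03). TMEM192 had the smallest p of that list, 0.0561 unadjusted (limma), at a log2 fold change of -0.325 and a mean log2 level of 3.40. The SD of log2 fold changes was 0.134 over genes below a level of 6, against 0.058 at 10 or more. TMEM192 was followed by HGSNAT, an enzyme of heparan sulfate breakdown, at 6.77 and 6.78 with miR-490, against 6.89 and 6.93 in controls. Other cargo receptors were lower in 6 of 9 (median -0.04), with CALCOCO2 at a log2 fold change of -0.075. Other V-ATPase subunits were lower in 6 and higher in 5 of 13 (median 0), with the accessory subunits ATP6AP2 at -0.15 and ATP6AP1 at -0.12.

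The remaining lists had other splits, again beside 47.3% of all genes lower and 50.1% higher. The list of TFEB relatives and of mTORC1 genes and regulators was higher in 16 of 23 (median 0.015), where 50.1% of all genes were higher. The TFEB relatives on it were not among the 16, at log2 fold changes of -0.085, -0.015 and 0. mTORC1 senses nutrients on the lysosomal surface and holds TFEB in the cytoplasm. FLCN, which acts on the GTPases that recruit mTORC1, had 6.22 and 6.28 with miR-490, against 6.04 and 6.09 in controls (unadjusted p = 0.03, adjusted p = 0.786, limma). MTOR, the kinase itself, had 7.85 and 7.91 with miR-490, against 7.74 and 7.80 in controls, and RPTOR, its scaffold, was at a log2 fold change of 0.145. Other initiation genes were lower in 11 of 17 (median -0.015), although UVRAG and AMBRA1, regulators of the BECN1 complex, were at 0.25 and 0.225 (unadjusted p = 0.0203 and 0.0476, adjusted p = 0.786 each, limma). UVRAG, at a mean log2 level of 4.975, lay below the median gene. Other ATG8 and conjugation genes were higher in 6 of 7 (median 0.05). Autophagosome fusion genes were higher in 8 of 14 (median 0.023), with STX17, the fusion SNARE, at 0.155. Lysosomal sorting receptors were lower in 4 of 6 (median -0.02). None of these list medians was tested.

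**Figure D5:**
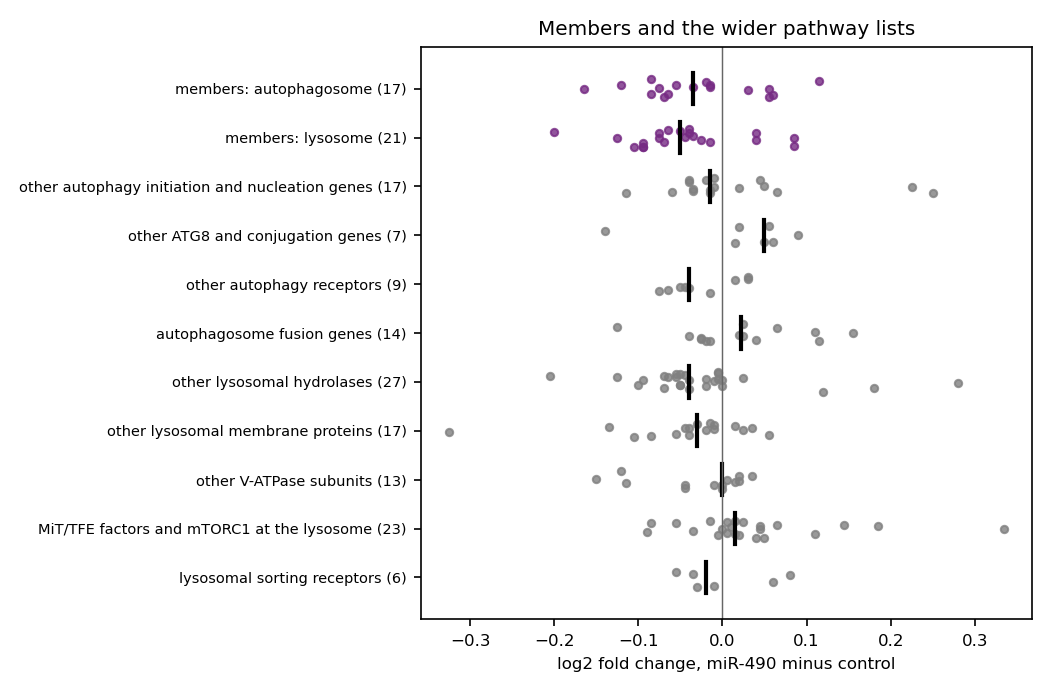
Log2 fold changes, miR-490 minus control (x axis), of each gene in the 2 member sets in purple and in 9 wider pathway lists in grey, with the median of each as a black bar and the number of measured genes in brackets. Medians run from -0.05 for the lysosome members to 0.05 for the other ATG8 and conjugation genes.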

How the data were processed

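Total RNA of 2 miR-490 and 2 control samples was labelled with biotin and hybridised, per the labels' protocols. The deposited log2 values come from RMA, per the submitters' processing notes; the sources used here give neither its software nor its settings. RMA makes the arrays alike, so a shift of most transcripts cannot be seen. Precision is limited by the number of arrays, with a standard error of 0.0725 for the median gene.

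The platform annotation gives 1 symbol for 44988 of 49293 probe sets, several for 1832 and none for 2473, and symbols were updated through 44961 Entrez matches. For each of 18132 genes the brightest set by its 4-array mean was fitted with limma 3.58.1 in R 4.3.3 (lmFit and eBayes; degrees of freedom 2 residual, 2.45 prior). Tests were two-sided with Benjamini-Hochberg adjustment over all genes and a threshold of 0.05. The fit was tested on simulated data. Of the 38 sets used, 6 are of the kind whose probes may cross-hybridise (x), that of SQSTM1 among them. A further 10 are of the kind shared by several transcripts (s). The members, lists, alternatives and naming rule (all members, and up to 3 genes of each wider list with the smallest p) were chosen with earlier results of these data known. The split at a log2 level of 10, the promoter motifs and the role medians with an array left out were added after seeing the data. Of 180 list and marker genes, 10 were not analysed here. Batches were not tested, since scan dates were not used here. Alternatives were quantile normalisation, centring, a trended prior, a trended robust prior, a filter keeping genes above the median, other choices of probe set, an unmoderated model, each replicate left out and the replicate block. Figures were drawn with matplotlib 3.10.9.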

Additional observations from a re-analysis of the deposited data

How the results depend on the processing

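No member, no wider list gene and no gene of the table passed the adjusted threshold in any of the 13 alternatives run (limma, or the unmoderated model; smallest adjusted p over all genes 0.131 and over members 0.6). Members with lower means numbered 25 to 29, against 29 as reported. Members lower at an unadjusted p under 0.05 numbered 2 as reported, 1 with quantile normalisation or with array medians centred, 0 when probe sets were averaged per gene and 0 with the probe set of largest variance (where GAA was higher at that level), 3 with the trended prior and 3 with the trended robust prior (CTSB, LAMP2 and SQSTM1), 3 with the unmoderated model (ATG5, CTSK and LAMP2), and 0 to 3 with 1 array left out. The autophagosome median of -0.035 was -0.045 with quantile normalisation, -0.05 with centring and -0.023 with the mean of probe sets, and -0.05 to -0.02 with 1 array left out. The lysosome median of -0.05 was -0.065 with centring and -0.03 with the probe set of largest variance, and -0.045 to -0.035 with 1 array left out. The cause was not tested. With the replicate block 0 members were lower at an unadjusted p under 0.05, against 2, and both medians were as reported; same-numbered arrays deviated with a correlation of -0.026 across genes, and the labels do not say that a number marks a shared batch. Of 493 alternatives of single members, 28 in 16 genes had the opposite sign and 4 were at 0, with 0 calls. CTSZ, a dim gene, has no value among genes above the median level. Leaving out 1 array takes the spread of the group left with 1 array from the other.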
